A study of Rattus norvegicus with 12 samples.

Results

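The 9 genes described here encode proteins of neurosteroid synthesis and turnover: Akr1c14, Srd5a1, Star, Tspo, Cyp11a1, Cyp7b1, Sts, Hsd17b4 and Hsd17b10. They are 9 of the 17494 genes in the deposited count table, in which all 9 were found by symbol. Akr1c14 was chosen because, in the same comparison of treatments that is described below, it was among the genes with the smallest unadjusted p, so its values are given as a description with no test. The other 8 genes were chosen for their roles in the pathway. Only 8 of the 9 passed the filter on low counts (12325 genes passed in all), and Cyp11a1, which did not pass, is given as counts.

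Neurosteroids are steroids made or finished inside the nervous system. Cholesterol is carried into mitochondria with the help of StAR (Star) and, in many accounts, of the translocator protein (Tspo), and is cut to pregnenolone by the side-chain cleavage enzyme (Cyp11a1). Progesterone made from pregnenolone is reduced by steroid alpha-reductase type I (Srd5a1) to dihydroprogesterone, which the hydroxysteroid dehydrogenase encoded by Akr1c14 in the rat can reduce to allopregnanolone, a steroid that enhances currents through GABA-A receptors. Cyp7b1 hydroxylates pregnenolone, dehydroepiandrosterone and oxysterols, Sts removes sulfate from sulfated steroids, and Hsd17b4 and Hsd17b10 are oxidative dehydrogenases of peroxisomes and mitochondria that act on steroids as well as on other substrates. In the hippocampus, Srd5a1 and the hydroxysteroid dehydrogenases are known for the local supply of such steroids.

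RNA was sequenced from 12 male Long Evans rats of wild-type genotype, all exposed to 3 blasts at 10 weeks of age and sacrificed 29 weeks later. From the second week after blast, 6 rats (blast-boldine, rats 12, 17, 19, 20, 32 and 35) ate chow with boldine, an alkaloid known as an antioxidant, at 500 mg/kg, and 6 rats (blast-controls, rats 1, 4, 5, 6, 7 and 9) ate the same chow without it. By its label the tissue is brain, by the study's methods it is hippocampus, 1 library came from each rat, and rats without blast are not analysed here. The comparison asks which of these genes differed with boldine among rats that had all been exposed to blast.

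The libraries of 11 rats held between 10148474 and 40850106 counts on genes, and that of blast-control rat 6 held 74008. Per count, rat 6 gained 15.8 CPM (counts scaled to 1e+06 per library after TMM scaling), whereas no other rat gained more than 0.102 CPM, so the comparisons of the 9 genes and the counts over gene lists were repeated without rat 6. The library names also carry suffixes from 1 to 6, each of them on 2 libraries, and an assignment of rats 4, 5, 6, 12, 17 and 19 to a sheet A and of rats 1, 7, 9, 20, 32 and 35 to a sheet B, with 3 rats of each treatment in each, fits these suffixes. The assignment is inferred from the suffixes and from expression and is not stated in the labels. It accounted for 95.1% of the first principal component of 11 libraries, which held 66.0% of their variance. As expression helped to find the sheets, this share describes them and is no test of the assignment. Of 7 markers of hippocampal principal neurons, 6 (Prox1, Wfs1, Fibcd1, Neurod6, Zbtb20 and Rgs14) were detected in each of the 11 rats and Spink8 lay between 0 and 0.197 CPM, with summed levels of 1317 to 1485 CPM in blast-boldine rats and 1192 to 1708 CPM in blast-controls. In RNA from whole tissue, fewer cells of a type and less RNA per cell cannot be told apart.

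Akr1c14 was higher in blast-boldine rats than in blast-controls, at 2.60 ± 0.865 CPM (n = 6, SD) against 1.19 ± 0.350 CPM (n = 5 without rat 6, SD), a ratio of means of 2.18. In blast-boldine rats 12, 17, 19, 20, 32 and 35 it had 51, 35, 39, 26, 67 and 39 counts, which are 2.95, 3.47, 3.0, 1.17, 3.08 and 1.94 CPM. In blast-control rats 1, 4, 5, 7 and 9 it had 57, 13, 14, 27 and 7 counts, which are 1.25, 1.28, 1.43, 1.41 and 0.584 CPM, and in rat 6 it had 0 counts. The level in 5 of the 6 blast-boldine rats lay above that of every blast-control, while rat 20 lay inside the range of the blast-controls. The share of all genes with 5 of 6 rats beyond the other group was not counted. Without rat 6, the ranges of the groups did not overlap at all in 19 of 12529 genes (0.152%), and Akr1c14 was not one of them. The value of rat 6 carried no information on this gene, since a library of its size would hold 0.0810 counts of Akr1c14 at the median level of the other blast-controls.

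The log2 fold change of Akr1c14, blast-boldine against blast-controls, was 1.10 (SE 0.30) in edgeR with all 12 rats and 1.10 (SE 0.32) without rat 6. Only 0.170% of the 12325 tested genes had a larger absolute log2 fold change, and 7.0% had a lower mean CPM, so that this was a large difference in a gene of low abundance. With rat 6 left out and the sheet as a covariate, the log2 fold change was 0.99 (SE 0.27). In sheet A the mean was 3.14 CPM in 3 blast-boldine rats and 1.36 CPM in 2 blast-controls, and in sheet B it was 2.06 CPM in 3 blast-boldine rats and 1.08 CPM in 3 blast-controls. The difference thus had the same direction in both sheets, and leaving out any single rat gave log2 fold changes between 0.94 and 1.26. These values come from the contrast that led to the choice of the gene and cannot serve as a test of it.

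**Figure D1:**
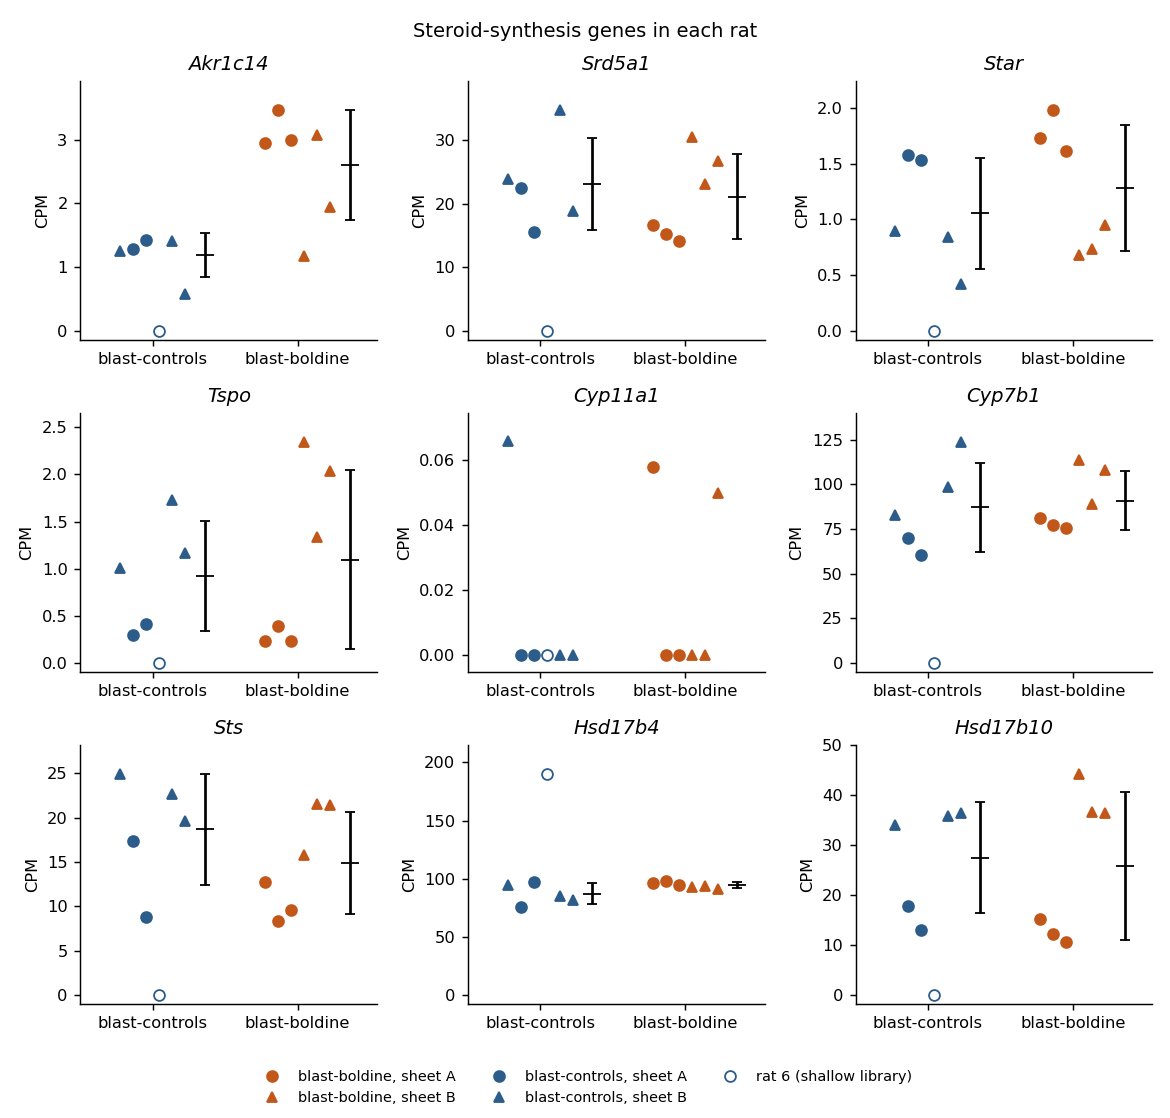
Level of each of the 9 genes (CPM, vertical axes, each with its own scale) in the blast-controls and the blast-boldine rats. Circles are rats of sheet A, triangles rats of sheet B, the open circle is the shallow library of rat 6, and the bars give mean and SD without rat 6 (none drawn for Cyp11a1). Akr1c14, which was chosen on this contrast, lies above every blast-control in 5 of 6 blast-boldine rats. Tspo and Hsd17b10 separate by sheet rather than by treatment.

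No gene of the 12325 tested differed between treatments at an adjusted p under 0.05 (quasi-likelihood test of edgeR, p adjusted by Benjamini-Hochberg; adjusted p = 1.0 for all 8 genes tested here). At an unadjusted p under 0.05, edgeR called 132 genes, or 1.07% of those tested (0.552% in the direction of higher in blast-boldine), DESeq2 called 85 and limma-voom called 115. Among the 8 genes here, edgeR called 1 at that level, Akr1c14, which had been chosen on it, and 0 of the other 7. The median log2 fold change of these 7 was 0.01, with 4 estimates above 0 and 3 below, beside a median of 0.0046 over all genes tested.

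Akr1c14 spans bases 66156286 to 66173277 of chromosome 17 on the minus strand (mRatBN7.2), with 9 exons in the annotation and 2315 bases of exon. It belongs to a cluster of aldo-keto reductase genes, enzymes that reduce or oxidise hydroxyl and keto groups of steroids, prostaglandins and other compounds. The table lists 9 genes of the Akr1c family, from Akr1c2 (start 65759786) to Akr1c15 (end 66208061), and no exon of Akr1c14 overlapped an exon of another listed gene on either strand. The sequences of the family are similar, reads that align to several copies were not counted under the command the study gives, and a part of the reads of each copy may therefore be missing. The 3 other members abundant enough to be tested showed smaller differences. Akr1c13 measured 2.82 ± 0.599 CPM (n = 6, SD) in blast-boldine rats and 2.69 ± 0.502 CPM (n = 5 without rat 6, SD) in blast-controls, with a log2 fold change of 0.09 (SE 0.21, 95% interval −0.36 to 0.54). Akr1c19 measured 4.17 ± 0.515 CPM against 4.01 ± 0.700 CPM, with a log2 fold change of 0.06 (SE 0.18, 95% interval −0.32 to 0.44). Akr1c15, the next gene in the cluster, measured 4.20 ± 1.52 CPM against 3.65 ± 1.15 CPM, with a log2 fold change of 0.21 (SE 0.29, 95% interval −0.41 to 0.83). Without rat 6 these log2 fold changes were 0.08 (SE 0.20) for Akr1c13, 0.05 (SE 0.16) for Akr1c19 and 0.20 (SE 0.30) for Akr1c15. None of the 3 passed at an unadjusted p under 0.05 in edgeR, and whether their differences were smaller than that of Akr1c14 was not tested. Akr1c12 had 2 to 14 counts in the 11 rats other than rat 6, Akr1c2 had 0 to 3, Akr1c3 had 1 count in a single rat, and Akr1c1 and Akr1c12l1 had 0 counts in every rat.

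Promoter sequence from RefSeq (build GRCr8, which is not the build of the counts) was at hand for 6 of the 9 genes (all but Star, Tspo and Cyp7b1) and for 8 of the 9 members of the Akr1c family. The 250 bases before the start of Akr1c14 and of its neighbour Akr1c15 are printed 5′ to 3′ in the direction of transcription, because these are the gene with the largest difference here and the listed gene closest to it in the cluster. Capitals mark matches to TGACNNNGC, the core of the antioxidant response element through which Nrf2 acts, searched on both strands. The windows are chr17:71083185-71083434 (minus strand) for Akr1c14 and chr17:71117958-71118207 (minus strand) for Akr1c15.
Akr1c14: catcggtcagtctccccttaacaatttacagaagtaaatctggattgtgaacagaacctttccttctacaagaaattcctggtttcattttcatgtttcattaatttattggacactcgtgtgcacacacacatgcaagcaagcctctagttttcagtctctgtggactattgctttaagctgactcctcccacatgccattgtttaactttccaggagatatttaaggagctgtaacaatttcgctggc
Akr1c15: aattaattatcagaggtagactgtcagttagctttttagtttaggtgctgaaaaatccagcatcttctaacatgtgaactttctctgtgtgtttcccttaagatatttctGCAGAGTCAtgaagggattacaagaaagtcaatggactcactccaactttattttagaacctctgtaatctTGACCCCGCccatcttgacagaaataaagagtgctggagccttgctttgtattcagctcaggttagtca
The window of Akr1c14 held no match and that of Akr1c15 held 2, 1 on each strand. Of the 8 promoters of the family 1 held a match, of the 6 promoters of the 9 genes 0 did, and of 33469 rat promoters of this length 10.1% did. A match is a description of the letters only.

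Star and Tspo, whose products are linked to the delivery of cholesterol, had few counts. Star, whose product moves cholesterol to the inner mitochondrial membrane, lies on chromosome 16 from 66267094 to 66271717 (mRatBN7.2, 7 exons). It had 15 to 30 counts in blast-boldine rats and 5 to 41 counts in blast-controls other than rat 6, which are 0.677 to 1.98 CPM (median 1.28) and 0.417 to 1.58 CPM (median 0.900). The ranges overlapped, and the mean of 1.28 ± 0.563 CPM (n = 6, SD) in blast-boldine rats lay within the spread of the 1.05 ± 0.496 CPM (n = 5, SD) in blast-controls. In edgeR the estimate on the log2 scale was 0.29 (SE 0.37, 95% interval −0.52 to 1.09; exact two-sided permutation p = 0.258, and 0.519 without rat 6), and 0.28 (SE 0.40) without rat 6. The permutation p values belong to differences in mean log2 CPM of 0.80 with rat 6 at 0 counts and of 0.27 without it.

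Tspo, a protein of the outer mitochondrial membrane that binds cholesterol and is widely used as a marker of reactive glia, lies on chromosome 7 from 114720221 to 114730450 (4 exons). Its counts in blast-boldine rats 12, 17, 19, 20, 32 and 35 were 4, 4, 3, 52, 29 and 41, and in blast-control rats 1, 4, 5, 7 and 9 they were 46, 3, 4, 33 and 14. All 5 rats of sheet A other than rat 6 had 3 or 4 counts and all 6 rats of sheet B had 14 to 52, in both treatments. Between treatments the levels were 1.10 ± 0.948 CPM (n = 6, SD) and 0.922 ± 0.586 CPM (n = 5 without rat 6, SD). The log2 fold change of 0.25 had an SE of 0.60 and a 95% interval from −1.03 to 1.53 (exact permutation p = 0.554, and 0.970 without rat 6). Without rat 6 the difference in mean log2 CPM was −0.02, opposite in sign to the fold change. With rat 6 left out and the sheet as a covariate, the log2 fold change was 0.39 and its 95% interval ran from −0.21 to 0.99.

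Cyp11a1, the enzyme of the first committed step of steroid synthesis, was barely counted. It lies on chromosome 8 from 58422807 to 58434338 (9 exons), and had 1 count in blast-boldine rats 12 and 35, 3 counts in blast-control rat 1 and 0 counts in the other 9 rats. In the 11 rats other than rat 6, 3 counts correspond to between 0.0658 and 0.307 CPM, so that Cyp11a1 stayed at or below that floor in every rat and was not tested. The counts cannot show whether boldine changed it.

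Srd5a1, which makes the substrate of the enzyme encoded by Akr1c14, lies on chromosome 1 from 33686470 to 33720463 (5 exons). It measured 14.2 to 30.4 CPM (median 19.9) in blast-boldine rats and 15.6 to 34.7 CPM (median 22.5) in blast-controls without rat 6. The ranges covered each other almost wholly, and the means of 21.0 ± 6.68 CPM (n = 6, SD) and 23.1 ± 7.28 CPM (n = 5, SD) differed by less than the spread between rats. The log2 fold change was −0.10 (SE 0.27, 95% interval −0.68 to 0.49; exact permutation p = 0.701, and 0.602 without rat 6), and −0.14 (SE 0.25) without rat 6. The all-rat permutation p belongs to a difference in mean log2 CPM of 1.12, opposite in sign to this fold change, with rat 6 at 0 counts, and the p without rat 6 to a difference of −0.14.

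Per kilobase of exon, Cyp7b1, Hsd17b4 and Hsd17b10 had the highest mean levels of the 9 genes. In CPM the mean of Hsd17b10 in sheet A without rat 6, 13.8, was below the 16.8 of Srd5a1. Cyp7b1 lies on chromosome 2 from 100502791 to 100669698 (6 exons) and measured 75.8 to 114 CPM (median 85.1) in blast-boldine rats and 60.4 to 124 CPM (median 83.0) in blast-controls without rat 6. The range of the blast-controls enclosed that of the blast-boldine rats. Rat 6 had 0 counts of Cyp7b1, where 5.24 would be found at the median of the other blast-controls. In edgeR, Cyp7b1 had a log2 fold change of 0.15 (SE 0.28, 95% interval −0.45 to 0.74; exact permutation p = 0.335, and 0.667 without rat 6), and 0.06 (SE 0.19) without rat 6. The p values belong to differences in mean log2 CPM of 1.67 with rat 6 at 0 counts and of 0.09 without it.

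Hsd17b4, a peroxisomal enzyme that oxidises estradiol and takes part in the breakdown of fatty acids, lies on chromosome 18 from 43328903 to 43417950 (24 exons). It measured 91.0 to 98.1 CPM (median 94.3) in blast-boldine rats and 76.0 to 97.5 CPM (median 84.9) in blast-controls without rat 6. The blast-boldine rats lay close together, at 94.5 ± 2.63 CPM (n = 6, SD), and the blast-controls were spread more widely, at 87.0 ± 9.03 CPM (n = 5, SD). Of the 6 blast-boldine rats 6 lay above the median of these blast-controls and 1 above all of them. Its log2 fold change was 0.01 (SE 0.16, 95% interval −0.34 to 0.36) with all rats and 0.11 (SE 0.09, 95% interval −0.08 to 0.31) without rat 6, and the exact permutation p was 0.952 (difference in mean log2 CPM −0.06) and 0.0887 (difference 0.12). In rat 6 the 12 counts of Hsd17b4 correspond to 190 CPM, with an exact Poisson 95% interval of 98.2 to 332 CPM that covers counting error only.

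Hsd17b10, a mitochondrial enzyme that oxidises allopregnanolone and other steroids and takes part in the breakdown of isoleucine, lies on chromosome X from 21089152 to 21091597 (6 exons). It measured 10.7 to 44.2 CPM (median 25.8) in blast-boldine rats and 13.0 to 36.5 CPM (median 34.1) in blast-controls without rat 6. Within each treatment the rats fell into a low and a high set, which were the rats of sheet A and of sheet B. Its log2 fold change was −0.04 (SE 0.42, 95% interval −0.95 to 0.86), and −0.03 (SE 0.12, 95% interval −0.29 to 0.23) with rat 6 left out and the sheet as a covariate. By exact permutation p was 0.658 over all rats, where the difference in mean log2 CPM was 1.10 with rat 6 at 0 counts and thus opposite in sign to the fold change, and 0.39 when rat 6 was left out and rats were exchanged within sheets.

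Sts, which frees steroids from their sulfates, lies on chromosome X from 42225372 to 42233403 (11 exons). It measured 8.33 to 21.5 CPM (median 14.3) in blast-boldine rats and 8.81 to 24.9 CPM (median 19.6) in blast-controls without rat 6. The ranges overlapped, with 1 blast-boldine rat below every blast-control. Its log2 fold change was −0.30 (SE 0.31, 95% interval −0.97 to 0.38; exact permutation p = 0.825, and 0.355 without rat 6), and −0.33 (SE 0.31) without rat 6. The p over all rats belongs to a difference in mean log2 CPM of 0.87, opposite in sign to the fold change, with rat 6 at 0 counts, and that without rat 6 to a difference of −0.33. Over the 7 genes given these permutation tests, none had a p under 0.05 with all rats, without rat 6, or within sheets, and the values are not adjusted for the number of tests.

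**Figure D2:**
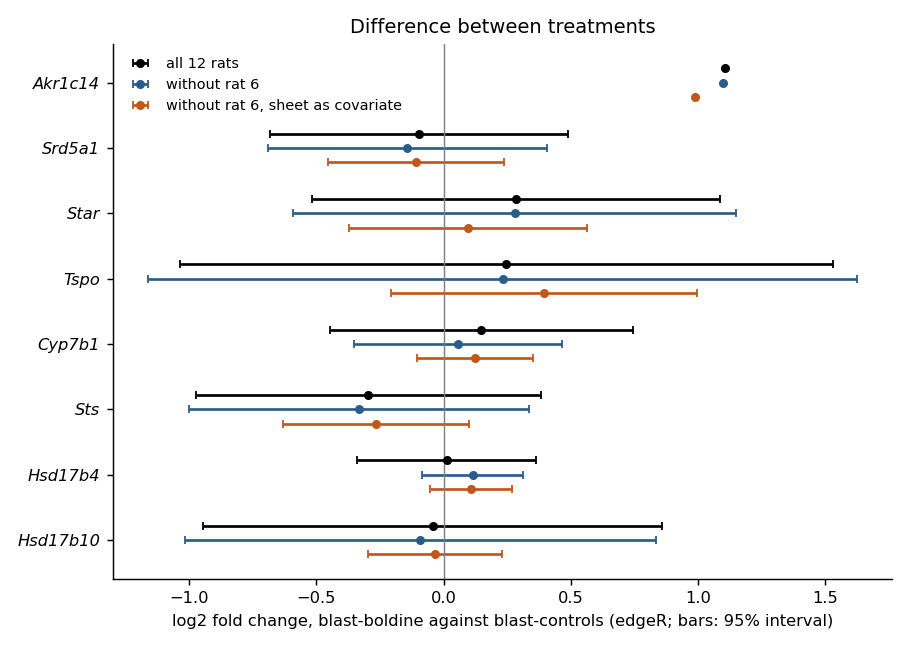
Log2 fold change, blast-boldine against blast-controls (horizontal axis), of the 8 tested genes in edgeR with all 12 rats (black), without rat 6 (blue) and without rat 6 with the sheet as covariate (orange). Bars are 95% intervals and are left out for Akr1c14, which was chosen on this contrast. The intervals of the other 7 genes all include 0 in the 3 fits, and all 7 are narrower once the sheet is a covariate, among them those of Hsd17b10 and Tspo.

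Leaving rat 6 out changed the share of genes called at an unadjusted p under 0.05 to 1.4% (0.551% higher in blast-boldine), and adding the sheet as a covariate as well changed it to 5.35% (1.81% higher). In both fits 0 of the 7 genes other than Akr1c14 were called at that level. With the sheet as covariate and without rat 6, the log2 fold changes of the others were −0.11 (SE 0.16) for Srd5a1, 0.10 (SE 0.22) for Star, 0.39 (SE 0.28) for Tspo, 0.13 (SE 0.11) for Cyp7b1, −0.27 (SE 0.17) for Sts and 0.11 (SE 0.07) for Hsd17b4. No gene of the 12529 tested in either fit had an adjusted p under 0.05 in edgeR.

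The levels of the 9 genes differed far more from gene to gene than between treatments. In RPKM, which is CPM per kilobase of exon and allows genes to be compared, the means over the 11 rats other than rat 6 were 35.3 ± 2.77 (n = 11, SD) for Hsd17b4, 34.0 ± 7.51 for Cyp7b1 and 29.3 ± 13.9 for Hsd17b10. Srd5a1 followed at 8.40 ± 2.56 RPKM and Sts at 6.77 ± 2.44 RPKM. Tspo at 1.21 ± 0.918 RPKM, Star at 1.02 ± 0.451 RPKM and Akr1c14 at 0.847 ± 0.424 RPKM were low, and Cyp11a1 at 0.00886 ± 0.0153 RPKM was lowest. The ranges over rats of neighbours in this order overlapped, except between Sts and Tspo and between Akr1c14 and Cyp11a1. The mean of Hsd17b4 was 41.6 times that of Akr1c14. Reads that align to several Akr1c copies were not counted, so the level of Akr1c14 may be too low by an amount that was not measured. The order of neighbours depended on the inferred sheet. In sheet A the mean of Tspo, 0.372 RPKM, was below those of Akr1c14 (1.05) and Star (1.46), while in sheet B Tspo at 1.91 RPKM was above Akr1c14 (0.680) and Star (0.652). In sheet B Hsd17b10 had the highest mean at 41.1 RPKM, above Cyp7b1 (39.1) and Hsd17b4 (34.8), and in sheet A it was at 15.2 RPKM, below Hsd17b4 (35.8) and Cyp7b1 (27.8). Hsd17b10 lay above Srd5a1 in 11 of 11 rats although their ranges over rats overlapped.

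**Figure D3:**
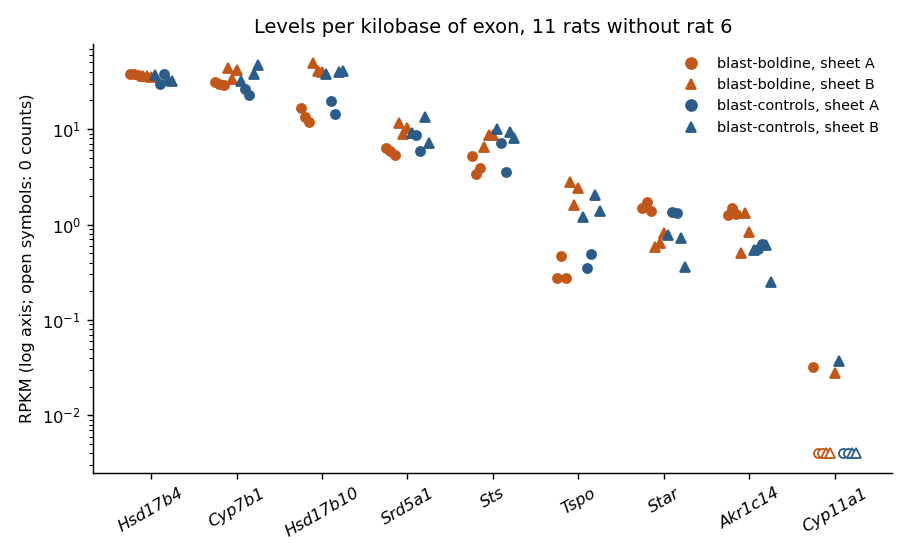
Level of the 9 genes per kilobase of exon (RPKM, log axis) in the 11 rats other than rat 6, ordered by their mean. Orange symbols are blast-boldine rats, blue symbols blast-controls, circles sheet A and triangles sheet B; open symbols at the bottom are rats with 0 counts, drawn at an arbitrary level, and the order runs from 35.3 RPKM for Hsd17b4 to 0.00886 RPKM for Cyp11a1.

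Several of the genes followed the inferred sheet more than the treatment. Since expression was used to find the sheets, these differences are a description with no test, over 6 rats of sheet B and 5 of sheet A. Tspo measured 1.60 ± 0.524 CPM (SD) in sheet B and 0.313 ± 0.0867 CPM in sheet A, a log2 difference of 2.41 (SE 0.32), and only 0.439% of genes had a larger absolute difference between the sheets. Hsd17b10 measured 37.3 ± 3.54 CPM in sheet B and 13.8 ± 2.80 CPM in sheet A, a log2 difference of 1.42 (SE 0.13), with 6.32% of genes beyond it. Sts (0.85, SE 0.17), Srd5a1 (0.63, SE 0.16) and Cyp7b1 (0.50, SE 0.11) were also higher in sheet B on the log2 scale. Star was higher in sheet A, at 1.69 ± 0.180 CPM against 0.752 ± 0.192 CPM, a log2 difference of −1.12 (SE 0.21). Hsd17b4 hardly differed (−0.04, SE 0.07), and Akr1c14 was lower in sheet B by a log2 difference of −0.49 (SE 0.27).

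Gene length and the summed microglial markers moved with the sheet as well, while the sums of astrocyte and of oligodendrocyte markers overlapped between the sheets. The median log2 difference between sheets, B against A, was 0.28 for 1189 genes of up to 1000 bases of exon, 0.13 from 1000 to 2000 bases, 0.02 from 2000 to 3000 bases and −0.18 above 3000 bases. Tspo with 840 bases and Hsd17b10 with 907 bases are the shortest of the 9 genes, while Star with 1154 bases went the other way. The summed level of 7 microglial markers (Cx3cr1, P2ry12, Csf1r, Aif1, Tmem119, C1qa and C1qb) was 144 to 241 CPM in sheet A without rat 6 and 336 to 388 CPM in sheet B, and none of them was at 0 outside rat 6. The part of length or of microglial RNA in the levels of Tspo was not tested. Between treatments 0 of the 7 microglial markers had a log2 fold change above 0 and 0 had an unadjusted p under 0.05 in edgeR, beside 51.3% of all tested genes above 0. Without rat 6 this was again 0 of 7, beside 49.7% of all tested genes above 0. Of the 6 astrocyte and 6 oligodendrocyte markers, 1 and 3 were above 0 with all rats and 0 of each without rat 6. In both fits 0 of them were called. These counts of 0 called belong to the fits without the sheet. With rat 6 left out and the sheet as covariate, Tmem119 was at −0.47 (SE 0.14), against −0.52 (SE 0.41) with all rats. In that fit C1qb was at −0.35 (SE 0.18), and the other microglial markers lay between −0.28 (C1qa, SE 0.19) and −0.05 (Aif1, SE 0.10). It called 5.35% of all tested genes at an unadjusted p under 0.05 in edgeR, and how many markers it called was not counted. The microglial sums were 144 to 388 CPM in blast-boldine rats and 145 to 372 CPM in blast-controls without rat 6.

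**Figure D4:**
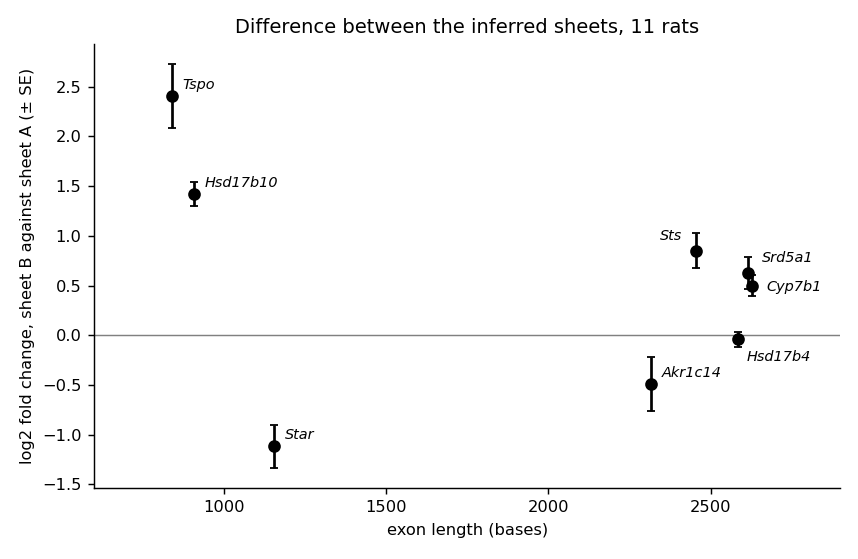
Log2 difference between the inferred sheets (sheet B against sheet A, vertical axis, ± SE, 6 and 5 rats, rat 6 left out) of the 8 tested genes against their length of exon in bases. The points run from 2.41 for Tspo to −1.12 for Star, both short genes, while the 4 genes above 2000 bases other than Akr1c14 lie between −0.04 and 0.85.

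Estimates for most markers of the meninges were above 0 as well, but with all rats only 2 passed at an unadjusted p under 0.05 in edgeR. The summed level of 7 markers of meningeal fibroblasts (Dcn, Lum, Col1a1, Col1a2, Ogn, Slc6a13 and Aldh1a2) was 55.5 to 163 CPM (median 79.1) in blast-boldine rats and 44.2 to 113 CPM (median 49.7) in blast-controls without rat 6. Of these 7, 6 had a log2 fold change above 0 and 2 an unadjusted p under 0.05 in edgeR, Slc6a13 (0.98, SE 0.35) and Aldh1a2 (0.88, SE 0.34), with a median over the list of 0.61, beside 1.07% of all tested genes called at that level and 51.3% with an estimate above 0. Without rat 6 the counts were the same, 6 and 2 of 7, with a median of 0.60. Both counts belong to fits without the sheet. With the sheet as covariate and without rat 6, Lum was at 0.77 (SE 0.24), against 0.61 (SE 0.47) with all rats. In that fit Slc6a13 was at 1.03 (SE 0.30), Aldh1a2 at 0.84 (SE 0.34) and Dcn at 0.00037 (SE 0.19). It called 5.35% of all tested genes at an unadjusted p under 0.05 in edgeR, and how many of the 7 it called was not counted. None of the 7 was at 0 in the 11 rats. Within each sheet the rats stood in the same order by Akr1c14 as by this sum. In sheet A the sums of rats 4, 5, 12, 19 and 17 were 44.2, 49.7, 58.0, 66.7 and 91.4 CPM, with Akr1c14 at 1.28, 1.43, 2.95, 3.0 and 3.47 CPM. In sheet B the sums of rats 9, 20, 1, 7, 35 and 32 were 44.8, 55.5, 68.5, 113, 120 and 163 CPM, with Akr1c14 at 0.584, 1.17, 1.25, 1.41, 1.94 and 3.08 CPM. The blast-controls thus held the lowest sums of sheet A, whereas in sheet B blast-boldine rat 20 lay below blast-control rats 1 and 7 in both measures. All 6 ependymal markers also had a log2 fold change above 0, of which Ccdc153 (1.02, SE 0.29) and Ak7 (0.68, SE 0.25) had an unadjusted p under 0.05 in edgeR with all rats. Their sums were 37.4 to 67.3 CPM in blast-boldine rats and 33.5 to 54.4 CPM in blast-controls without rat 6. With the sheet as covariate and without rat 6, Ccdc153 was at 0.93 (SE 0.27) and Ak7 at 0.55 (SE 0.15). The other ependymal markers lay between 0.19 (Rsph1, SE 0.24) and 0.50 (Dynlrb2, SE 0.23) in that fit. Of the tested markers of the choroid plexus 5 of 5 had an estimate above 0 (5 of 6 without rat 6), as had 5 of 5 of the endothelium. None of these was called at an unadjusted p under 0.05 in edgeR in the fits without the sheet. The sums of the choroid plexus were either high or low in each rat: they were 919 to 1287 CPM in 3 blast-boldine rats and 670 to 1198 CPM in 2 blast-controls, and 8.77 to 50.3 CPM in the other 6 of the 11 rats. Those of the endothelium split by sheet, at 244 to 342 CPM in sheet A without rat 6 and 87.2 to 126 CPM in sheet B, and the treatments overlapped within each sheet. The part of meningeal, ependymal, choroid plexus or endothelial RNA in the level of Akr1c14 was not tested.

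**Figure D5:**
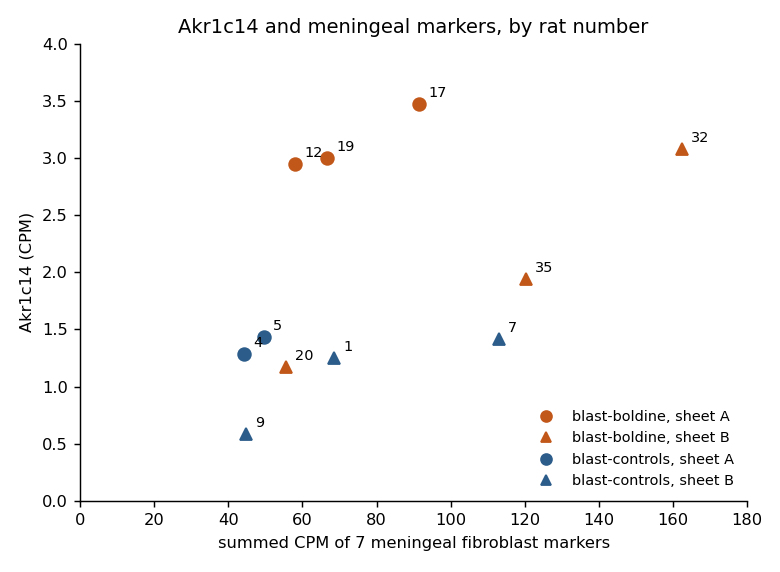
Akr1c14 (CPM, vertical axis) against the summed CPM of 7 markers of meningeal fibroblasts (horizontal axis) in the 11 rats other than rat 6, labelled by rat number. Orange symbols are blast-boldine rats, blue symbols blast-controls, circles sheet A and triangles sheet B; within each sheet Akr1c14 stands in the same order of rats as the sum of the markers.

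The 5 genes most like Akr1c14 across rats were Ddr2, Gstm2, Col3a1, Cfb and Coch, with Pearson correlations of 0.956, 0.932, 0.931, 0.929 and 0.925. The measure is the correlation of log2 CPM after the mean of each sheet was taken out, over 11 libraries and against 12021 genes, and the libraries share the treatment groups, so that these values are a description. Ddr2 encodes a collagen receptor, Gstm2 a glutathione transferase, Col3a1 a chain of type III collagen, Cfb complement factor B and Coch cochlin, a protein of the extracellular matrix. Among the 9 genes, the correlations with Akr1c14 were 0.647 for Star and 0.607 for Hsd17b4, and lay between −0.361 (Hsd17b10) and 0.0442 (Tspo) for the other 5 tested. Its neighbours Akr1c15, Akr1c19 and Akr1c13 had 0.430, 0.319 and 0.311.

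The wider pathway was read from 6 lists of genes by role, of which 65 genes were tested. Of these, 33 had a log2 fold change above 0 and 32 below, with a median of 0.00080, and 2 had an unadjusted p under 0.05 in edgeR, where 1.07% of all tested genes did. Without rat 6, 28 of the 65 were above 0 and 37 below, with a median of −0.02, and 1 had an unadjusted p under 0.05, where 1.4% of all tested genes did. With the sheet as covariate as well, 3 of the 65 had one (Rdh16, Cyp11b1 and Cyp46a1), where 5.35% of all tested genes did. In the list of Akr1c and related reductases, 5 of 8 tested genes had an estimate above 0 (4 without rat 6) and 1 passed at that level, Rdh16, a retinol dehydrogenase, at 0.827 ± 0.251 CPM (n = 6, SD) in blast-boldine rats against 1.48 ± 0.800 CPM (n = 5 without rat 6, SD) in blast-controls, with an estimate of −0.86 on the log2 scale (SE 0.36) and of −0.87 (SE 0.38) without rat 6. In the list of P450 enzymes and their electron donors, 3 of 10 had an estimate above 0, with and without rat 6. Cyp11b1, which makes corticosteroids in the adrenal cortex and has close copies in its family, passed at that level at 0.647 ± 0.435 CPM against 1.26 ± 0.810 CPM, with a log2 fold change of −0.99 (SE 0.46), but not without rat 6. With rat 6 left out and the sheet as covariate, Rdh16 was at −0.88 (SE 0.36), Cyp11b1 at −1.18 (SE 0.41) and Cyp46a1, the cholesterol hydroxylase of neurons, at −0.15 (SE 0.07). Cyp19a1, the aromatase that makes estradiol, had a log2 fold change of −0.48 (SE 0.31).

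The other lists held no gene with an unadjusted p under 0.05 in edgeR, with or without rat 6. Of 13 genes for the delivery of cholesterol 8 had an estimate above 0 (median 0.03; without rat 6 also 8, median 0.06), with Vdac2, a channel of the outer mitochondrial membrane, at 0.27 (SE 0.16) and Atad3a, a protein of the inner membrane, at −0.17 (SE 0.12). Of 10 reductases and hydroxysteroid dehydrogenases 5 had an estimate above 0 (median −0.04; without rat 6 4, median −0.03), with Hsd17b13 at 0.26 (SE 0.22) and Srd5a3 at −0.22 (SE 0.26). Of 8 genes of sulfation 3 did (median −0.03; without rat 6 2, median −0.07), with Sumf1, which activates sulfatases such as that of Sts, at 0.16 (SE 0.19) and Sult2b1, a sulfotransferase of cholesterol and pregnenolone, at −0.19 (SE 0.29). Of 16 receptors of neurosteroids 9 did (median 0.03), while without rat 6 7 did (median −0.03), so that neither the majority nor the sign of the median held. In this list were the estrogen receptor Esr2 at −0.44 (SE 0.35) and the GABA-A subunit Gabra4 at 0.12 (SE 0.15). Hsd3b1, Hsd3b2 and Cyp17a1, which are needed to make progesterone and androgens from pregnenolone, did not pass the filter on low counts.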

How the data were processed

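The authors deposited integer counts of reads per RefSeq gene, made from stranded total RNA libraries depleted of ribosomal RNA. Per the study's methods HTStream served for trimming and the removal of PCR duplicates, and STAR 2.7.11b for alignment to mRatBN7.2, allowing up to 20 alignments per read; exons were counted by strand with featureCounts (Subread 2.0.1). The command it gives does not count reads with several alignments. Genes passing filterByExpr (minimum of 10 counts) entered edgeR 4.0.16 (R 4.3.3; quasi-likelihood F test, TMM, treatment alone, all 12 rats, two-sided, Benjamini-Hochberg over all tested genes). SEs and 95% intervals came from its F statistic. Exact two-sided permutation tests compared mean log2 CPM (prior count of 2) over 924 assignments of rats, 462 without rat 6, 400 within sheets and 200 within sheets without rat 6, and left out Akr1c14 and Cyp11a1. Depth is given in the report; 3 counts were the smallest detected value, for counting error only. By the study's methods each rat was housed singly. The labels do not say whether rats were processed apart, so p-values measure the spread between these rats. The alternatives were DESeq2 1.42.0, limma-voom (limma 3.58.1), RLE factors, library totals, no filter, a minimum of 10 counts in every library except rat 6, the sheet as covariate, each sheet alone, a prior count of 0.5 and leaving out each rat. The genes, role lists and marker lists were chosen with earlier results of these data known, and named list genes are the 2 with the smallest p per list. The fits were tested on simulated data. Plots and permutations used Python 3.11.15.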

Additional observations from a re-analysis of the deposited data

Results flagged for a closer look

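The level of Hsd17b4 in blast-control rat 6, 190 CPM, lay far from the 76.0 to 97.5 CPM of the other 5 blast-controls. It rests on 12 counts in a library of 74008, where 5.36 counts would be found at the median of the other blast-controls, and the other 8 genes had 0 counts there. Of the 16 groups checked for a sample apart from the others this was 1, and chance gives about 1 in 20 such groups.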

How the results depend on the processing

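No gene had an adjusted p under 0.05 under any alternative run. Genes with an unadjusted p under 0.05, 132 as reported, numbered 85 with DESeq2, 254 without a filter on low counts, 474 with the sheet as covariate, 670 with the sheet and without rat 6, 481 in sheet A, 421 in sheet B and 692 in sheet A without rat 6, and 85 (without blast-boldine rat 12 or 17) to 214 (without blast-control rat 5) with 1 rat left out. The log2 fold change of Akr1c14 kept its direction in every fit that gave one: 1.05 in DESeq2, 0.85 in limma-voom, 1.07 with RLE factors and with library totals, 1.19 (SE 0.30) in sheet A and 0.85 (SE 0.41) in sheet B. These fits reuse the rats on which the gene was chosen, so the shared direction cannot serve as a test of it. Akr1c14 had no value under the filter of 10 counts in every library except rat 6, nor had Star and Tspo, and Tspo had none in sheet A alone. Estimates near 0 changed sign, and the cause was not tested: Srd5a1 to 0.036 in sheet B, Tspo to −0.24 in limma-voom, Hsd17b4 to −0.00083 with RLE factors, and Hsd17b10 to 0.0010 in DESeq2 and 0.14 in sheet B. With 1 rat left out the ranges were −0.23 to 0.10 for Srd5a1, −0.11 to 0.58 for Tspo, −0.056 to 0.11 for Hsd17b4, −0.26 to 0.12 for Hsd17b10, 0.10 (without blast-control rat 9) to 0.46 for Star, 0.06 (without rat 6) to 0.32 (without rat 9) for Cyp7b1, −0.46 (without blast-control rat 5) to −0.16 (without rat 1) for Sts and 0.94 to 1.26 for Akr1c14. Leaving out rat 6 turned the difference in mean log2 CPM of 5 genes, with exact permutation p (over all rats, then within sheets) of 0.602 and 0.46 for Srd5a1, 0.970 and 0.93 for Tspo, 0.355 and 0.14 for Sts, 0.0887 and 0.085 for Hsd17b4, and 0.714 and 0.39 for Hsd17b10. No paired analysis was possible because the rat numbers are not shared between the groups. Depth limits Akr1c14, Star, Tspo and above all Cyp11a1, and rat 6 holds too few counts for any of the 9 genes.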
